A study of Homo sapiens with 12 samples.

Results

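The regions described here carried an m6A peak in scrambled-siRNA cells and lacked it in ALKBH5-knockdown cells in at least 2 of 3 same-numbered pairs of libraries, and showed the reverse in none. Regions were made by joining the peaks of all 6 lists wherever their exon blocks overlapped by 1 bp or more on the same strand. There were 235 lost regions among 21675 (1.08%), in 218 genes. The members were chosen by these very calls, so the calls and every value taken from the same peaks are given as a description, with no test. The mirror set, gained in 2 or 3 pairs and lost in none, held 741 regions (3.42%).

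N6-methyladenosine (m6A) is an internal methyl mark of messenger and long noncoding RNA, written by a METTL3-containing complex and read by YTH and IGF2BP proteins. ALKBH5 is a demethylase that takes the mark off again, and it acts mainly in the nucleus. The mark affects how a transcript is spliced, exported, translated and degraded, and it is often found near stop codons and in long exons.

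The samples came from 143B, an established human osteosarcoma line, harvested 48 h after transfection. The groups used here were m6A immunoprecipitates (MeRIP-seq) of 143B cells given ALKBH5 siRNAs (3 libraries) and of 143B cells given scrambled siRNA (3 libraries). All 6 libraries shared the line and the transfection reagent, and the 6 input samples were not analysed here. Per the labels' protocols, replicates 1 and 3 used polyadenylated RNA with different antibodies, and replicate 2 used total RNA with a kit and a further antibody. Separate cultures are not mentioned for the numbers, so the spread between these samples may be technical. Each library had 1 deposited peak list and no read counts, so the depth behind a call is unknown. A region is "called" in a library with a peak there, "lost" in a number when scrambled and not knockdown called it, and "gained" in the reverse case. A lost call can also come with less RNA of that transcript, and fewer methylated copies and less RNA cannot be told apart in these lists.

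Peaks numbered 17563, 5917 and 18360 in the lists of knockdown replicates 1 to 3, and 15139, 5677 and 18724 in those of scrambled replicates 1 to 3. ALKBH5 itself had no peak in any knockdown library, against 1, 0 and 1 peaks in scrambled replicates 1, 2 and 3, which does not measure its RNA level. No single ALKBH5 region was lost in both replicates 1 and 3, so ALKBH5 was not among the member genes. Of 10 osteoblast and osteosarcoma marker genes, 5 had a peak in any library, RUNX2, SPP1 and COL1A1 among them, and SP7, ALPL, COL1A2, SPARC and IBSP had none. None of 4 epithelial, 4 blood and 3 endothelial markers had a peak. A missing peak does not show that a gene is silent.

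Most of the set rested on the polyadenylated libraries. Of the 235 regions, 185 (78.7%) were lost in replicates 1 and 3, 22 (9.36%) in 1 and 2, 26 (11.1%) in 2 and 3, and 2 (0.851%) in all 3. None of the 185 was called in either library of replicate 2, whose lists were the shortest. Over all regions, 7.99% were lost in replicate 1, 5.42% in replicate 2 and 13.2% in replicate 3, against 21.2%, 6.01% and 11.3% gained. Applied to both remaining numbers, the rule gave 39 regions without replicate 1, 25 without replicate 3 and 189 without replicate 2, of which 28, 24 and 187 were among the 235. Of regions called in both scrambled libraries concerned, 2.11% were lost in 1 and 3, 0.98% in 2 and 3 and 0.68% in 1 and 2. The gained counterparts, of regions called in both knockdown libraries concerned, were 4.46%, 1.27% and 5.89%.

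In all, 212 of the regions were called in no knockdown library. The other 23 were called in 1 knockdown library, always in the pair where the region was not lost, and always together with the scrambled library of that pair. These comprised 14 in replicate 3 and 9 in replicate 1.

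**Figure D1:**
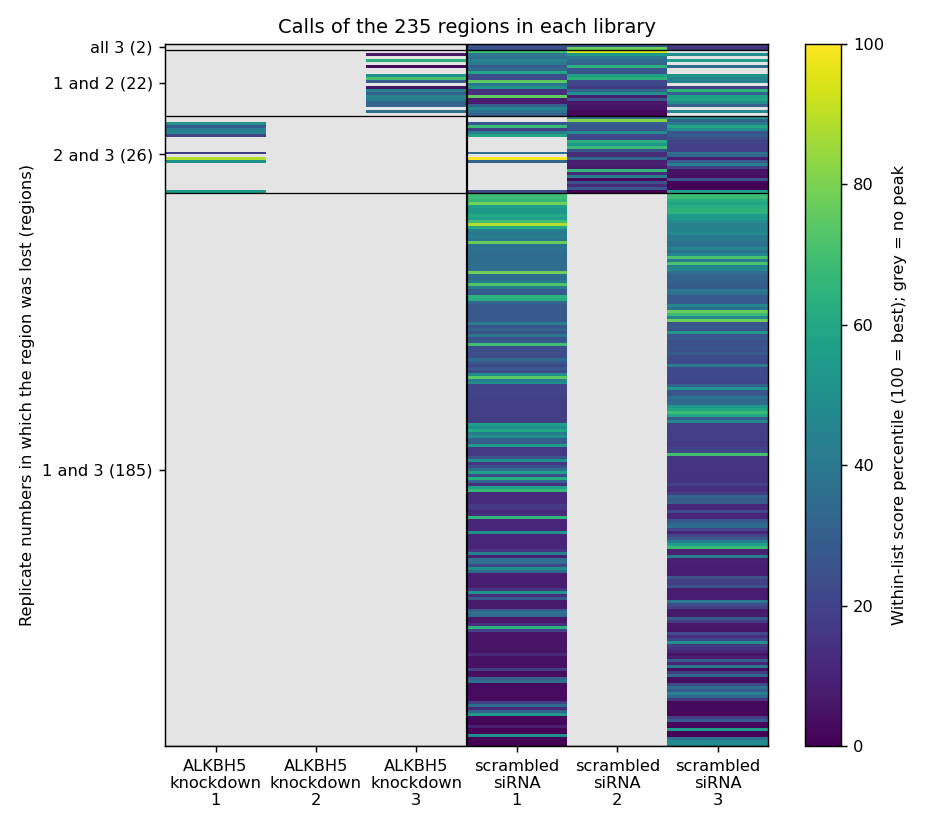
Each row is one of the 235 regions and each column a library, with colour for the within-list score percentile of its best peak (100 is the best score of a list) and grey for no peak. Knockdown replicate 2 called none of them, knockdown replicates 1 and 3 called 9 and 14, and scrambled replicates 1, 2 and 3 called 218, 50 and 227.

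The lost peaks were weak and short calls within their own lists. The score deposited for each peak was turned into a percentile within its list, where 100 is the best score. Each region took the percentile of its best peak in a library. Regions with several peaks therefore stand higher, and part of the gap to all regions can come from this. In scrambled replicate 1 the 218 called members had a median percentile of 27.4, against 55.8 over all regions called there. The medians were 26.8 against 55.0 in scrambled replicate 2, and 25.9 against 51.5 in scrambled replicate 3. A percentile above 50 was reached by 39 of 218, 11 of 50 and 32 of 227 members in scrambled replicates 1, 2 and 3, and one above 90 by 1, 1 and 0. The gained regions were also weak where they were called, with medians of 30.5, 27.1 and 31.9 in knockdown replicates 1, 2 and 3.

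Peak length showed the same picture. Lengths were summed over all peaks of a library in a region, so overlapping peaks counted more than once. The sum can therefore exceed the exon covered, and regions with several peaks have larger sums. Summed lengths in member regions had medians of 120, 119.5 and 181 nt in scrambled replicates 1, 2 and 3. Over all regions called in those libraries the medians were 241, 181 and 360 nt. Single peaks of these lists, taken without summing, had medians of 209, 151 and 331 nt. The joined member regions had a median of 211 nt (range 60 to 892), against 329 nt for all regions and 271 nt for the gained set. Regions called in exactly 2 libraries, as most members were, had a median of 239 nt. Regions lost in exactly 1 number and gained in none were shorter than the members, with a median of 151 nt. Peaks of the gained regions, summed in the same way, were short too, with medians of 180, 121 and 211 nt in knockdown replicates 1, 2 and 3. All regions called in those knockdown libraries had medians of 301, 181 and 361 nt. With only the best-scored 50% of each list, the rule gave 225 regions, and only 12 of the 235 had a peak in them.

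**Figure D2:**
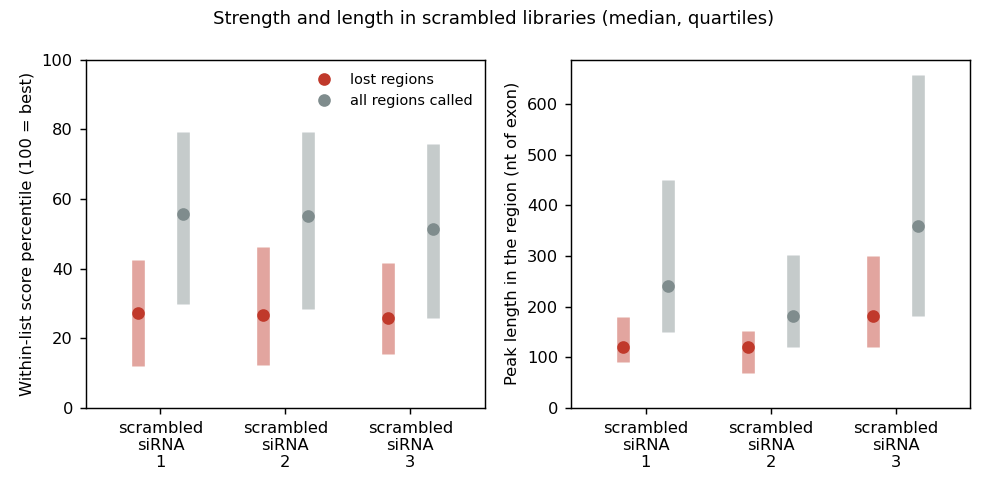
Medians (points) and quartiles (bars) in each scrambled library, for the lost regions (red) and for all regions called in that library (grey). Shown are the score percentile of a region's best peak and the peak length summed over its peaks (nt of exon). The median percentile of the lost regions was 27.4, 26.8 and 25.9 in replicates 1, 2 and 3, below the medians of 55.8, 55.0 and 51.5 for all regions.

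The bound of the rule falls between regions lost in 2 numbers and in 1. There were 4763 regions lost in exactly 1 number and gained in none. In scrambled replicate 1 the members lost there had a median percentile of 27.4, against 25.2 for regions lost there alone. In scrambled replicate 2 the medians were 26.8 for members and 31.7 for regions lost there alone, and in scrambled replicate 3 they were 24.5 and 15.6. Another 14 regions were lost in 2 numbers but gained in the remaining one, 11 of them in replicate 1, and so fell outside. Among their genes, named after their values were seen, were LATS1, KNL1, PSIP1 and GOLGB1. SENP6, a protease that takes SUMO chains off proteins, had a region on each side of the bound. The SENP6 region inside, at chr6:76373060-76376493 (hg19, plus strand), had no knockdown peak and covered 181 and 241 nt in scrambled replicates 2 and 3. The SENP6 region outside, at chr6:76412440-76419254, covered 211 nt in knockdown replicate 1, and 181 and 271 nt in scrambled replicates 2 and 3.

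The regions lost in all 3 numbers lay in HDAC9 and PJA2. HDAC9 (gene number 9734), a class IIa histone deacetylase, lost a region at chr7:18705885-18706125 on the plus strand. It had no peak in knockdown replicates 1, 2 and 3, and covered 211, 151 and 61 nt in scrambled replicates 1, 2 and 3. The scores of these HDAC9 peaks stood at percentiles 26.8, 26.8 and 18.3 of their lists. At another HDAC9 region knockdown replicates 1 and 3 had a peak and the scrambled libraries had none. PJA2 (gene number 9867), a RING-type ubiquitin ligase that targets regulatory subunits of protein kinase A, lost a region at chr5:108713944-108714212 on the minus strand. Its peak was absent from all 3 knockdown libraries, and covered 150, 269 and 121 nt in scrambled replicates 1, 2 and 3, at percentiles 23.9, 77.0 and 14.3. No knockdown library had a PJA2 peak anywhere.

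The best-ranked members, by the lowest percentile among the scrambled libraries where they were lost, were LINC00900, USO1, INSYN1, RPLP0P2 and SPTAN1. The LINC00900 region at chr11:115627341-115628000 (minus strand) had no knockdown peak, and covered 451 nt in scrambled replicate 1 and 660 nt in replicate 3, at percentiles 68.7 and 68.5. LINC00900 is a long intergenic noncoding RNA. USO1 encodes p115, a tether for vesicles that reach the Golgi. Its region at chr4:76731689-76733518 (plus strand) was listed in no knockdown library, and covered 91 nt in scrambled replicate 1 and 210 nt in scrambled replicate 2, at percentiles 68.2 and 92.7. INSYN1, a protein of inhibitory synapses, had 210 and 747 nt in scrambled replicates 1 and 3 and nothing in the knockdown libraries. USO1 and INSYN1 had no other region in any library.

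SPTAN1, the alpha chain of nonerythroid spectrin, differed from these. Its lost region at chr9:131390251-131390761 (plus strand) covered 181 and 511 nt in scrambled replicates 1 and 3, but a knockdown peak of a lost pair lay 58 nt away. Such neighbours were not rare. A knockdown peak on the same strand lay within 100 nt of 20 members and within 500 nt of 67, counted in the pairs where the region was lost. For 111 members the nearest such peak lay over 10000 nt away. These distances ran along the genome with introns counted, so they do not show how far apart peaks lay along a transcript. With peak ends extended by 100 bp before joining, 208 regions met the rule, and 185 of the 235 had a peak in them.

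Among the 22 regions lost in replicates 1 and 2, USO1 ranked first, and CENPF, ROCK2, LITAF and HOOK3 were among those that followed. CENPF, a kinetochore protein of dividing cells, lost a region at chr1:214814321-214814860 (plus strand), with knockdown peaks 119 nt away in replicate 1 and 448 nt away in replicate 2. That region covered 151 nt in knockdown replicate 3 only, against 240, 300 and 540 nt in scrambled replicates 1, 2 and 3. Elsewhere CENPF was heavily called, with 9, 5 and 7 other regions in knockdown replicates 1, 2 and 3, against 7, 6 and 10 in the scrambled ones. ROCK2, a kinase that acts on the actin cytoskeleton downstream of RHOA, had 90 and 60 nt in scrambled replicates 1 and 2 and no knockdown peak in its lost region at chr2:11337464-11337730 (minus strand). LITAF, a protein of late endosomes and lysosomes, was called at similar length in replicate 3, with 357 nt in the knockdown and 328 nt in the scrambled library. HOOK3, an adaptor that links cargo to microtubules, had a knockdown peak 29 nt from its lost region.

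The 26 regions lost in replicates 2 and 3 were led by SENP6, SCAF4, UACA, EAPP, PDCD2L and TRIP11. SCAF4, a protein that binds the tail of RNA polymerase II, had no knockdown peak in its region at chr21:33044299-33044478 (minus strand), which covered 90 and 180 nt in scrambled replicates 2 and 3. EAPP, an E2F-associated phosphoprotein, was called at 180 nt in knockdown replicate 1, against 151, 151 and 180 nt in scrambled replicates 1, 2 and 3. PDCD2L had 297 nt in knockdown replicate 1, and 90, 119 and 238 nt in scrambled replicates 1, 2 and 3. UACA was called at 240 nt in knockdown replicate 1, and at 210, 90 and 240 nt in scrambled replicates 1, 2 and 3. In these 3 genes the replicate 1 pair thus held a peak on each side while the other pairs held it in scrambled cells alone. UPF3B, a factor of nonsense-mediated decay and named after its values were seen, had the longest knockdown peak of the 9 members called in replicate 1, with 774 nt in knockdown replicate 1, against 773, 179 and 60 nt in scrambled replicates 1, 2 and 3.

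In 7 genes 2 regions were lost: KCNQ1OT1, TRIP11, DNHD1, PLEKHG4B, LINC00900, RPLP0P2 and TUBAL3. Of these, the gap in calls was widest in KCNQ1OT1, a nuclear antisense RNA that silences neighbouring imprinted genes in cis. Of its 16 regions, 1, 0 and 4 were called in knockdown replicates 1, 2 and 3, against 6, 0 and 14 in scrambled replicates 1, 2 and 3. Its 2 member regions, at chr11:2666934-2667204 and chr11:2671373-2671673 on the minus strand, covered 61 and 61 nt in scrambled replicate 1 and 271 and 301 nt in scrambled replicate 3. Without these 2 regions, KCNQ1OT1 had 1, 0 and 4 calls in the knockdown libraries, against 4, 0 and 12 in the scrambled ones. The rule shaped which regions remain and the gene was picked for its lost regions, so this gap was not tested. It was wider in replicate 3 than in replicate 1. All KCNQ1OT1 peaks together covered 151, 0 and 424 nt in the knockdown libraries, against 546, 0 and 3614 nt in the scrambled ones.

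TRIP11, which encodes the Golgi tether GMAP-210, was the only gene of these 7 with calls in scrambled replicate 2. Its regions called numbered 6, 0 and 5 in knockdown replicates 1, 2 and 3, against 6, 4 and 7 in the scrambled replicates. Replicate 1 thus showed equal numbers and replicate 2 the widest gap. Both of its lost regions, at chr14:92472478-92474089 and chr14:92480592-92480832 on the minus strand, were called on each side in replicate 1.

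DNHD1, a gene of the dynein heavy chain family, showed no such gap over its whole length. It had 7, 0 and 15 regions called in the knockdown libraries, against 7, 0 and 14 in the scrambled ones, and its lost regions lay 29 and 239 nt from knockdown peaks. PLEKHG4B had 5, 1 and 4 regions called in the knockdown libraries, against 5, 0 and 9 in the scrambled ones. LINC00900 and TUBAL3, an alpha-tubulin-like gene, each had no call in the knockdown libraries, against 2, 0 and 3 in the scrambled ones. RPLP0P2 had none in the knockdown libraries, against 3, 0 and 2. RPLP0P2 is a pseudogene of the ribosomal stalk protein RPLP0, and reads shared with near-identical copies may make its peaks uncertain. Whether TUBAL3 shares reads with other tubulin genes was not determined.

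**Figure D3:**
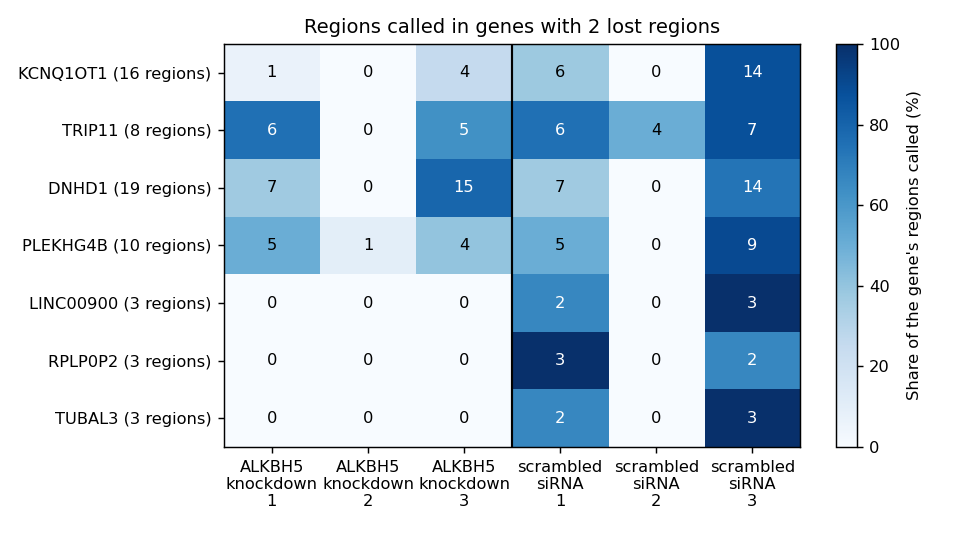
Number of regions called in each library (columns) for the 7 genes with 2 lost regions (rows), with shading for the share of the gene's regions. KCNQ1OT1 had 1, 0 and 4 regions in knockdown replicates 1, 2 and 3 against 6, 0 and 14 in the scrambled ones, while DNHD1 had 7, 0 and 15 against 7, 0 and 14.

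In 65 of the 218 genes (29.8%) no knockdown library had a peak listed under the gene's number. Over all 10536 genes of the lists 878 (8.33%) had none, but the rule itself removes knockdown calls from the members, so the gap is not a result. Of the 65, 24 had 3 or more region calls in the scrambled libraries, and 41 had exactly 2. The genes with most scrambled calls were LINC00900, RPLP0P2, SPATA41, TUBAL3 and ZNF608, with 5 each, and EGR2, C17orf107, PJA2, TPM3P9 and SAMD15 followed with 4. In SAMD15, a region was also called in knockdown replicate 1, by a peak not listed under its number. SPATA41, C17orf107, TPM3P9 and SAMD15 were named after their values were seen.

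EGR2, an immediate-early zinc finger transcription factor, had 3 regions in all. None was called in the knockdown libraries, against 1, 0 and 3 in scrambled replicates 1, 2 and 3, and EGR2 peaks covered 150, 0 and 748 nt there. The member region of EGR2 (gene number 1959), at chr10:64573455-64573932 on the minus strand, covered 150 and 478 nt in scrambled replicates 1 and 3. Its relative EGR3 and the EGR corepressor NAB2, both named after their values were seen, also lost a region in replicates 1 and 3. How often EGR genes and their partners occur among all regions was not determined. EGR3 had 0, 0 and 1 regions called in the knockdown libraries, against 1, 0 and 2 in the scrambled ones. NAB2 had 2, 0 and 2 against 3, 0 and 3, so most of its calls were shared.

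HSPA4 also had no knockdown peak, nor had AXIN2, TAL1, RHOQ, NPY1R, NUPR1 and APOE, which were named after their values were seen. AXIN2, a scaffold and feedback inhibitor of Wnt signalling, had 1, 0 and 2 regions called in scrambled replicates 1, 2 and 3. The transcription factor TAL1, the GTPase RHOQ and the neuropeptide receptor NPY1R showed the same 1, 0 and 2. NUPR1, a stress-induced nuclear protein, had 2, 0 and 1. HSPA4, a relative of the HSP70 chaperones, had 1, 1 and 1, with its lost region at chr5:132440020-132440170 (plus strand) covering 61 and 151 nt in scrambled replicates 2 and 3. APOE, the lipid carrier apolipoprotein E, had its 1 region called in scrambled replicates 1 and 3, at 178 and 118 nt.

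Conversely, many members lay in genes that knockdown libraries called at other sites. Of the 223 members with a gene number, 103 lay in a gene with a knockdown peak in every pair where the region was lost, 81 in a gene with none in those pairs, and 39 in a gene with one in some of them. ZFHX3, a large transcription factor gene named after its values were seen, had 10, 5 and 13 regions called in the knockdown libraries, against 8, 2 and 12 in the scrambled ones. BCL2, an inhibitor of apoptosis named in the same way, had 2, 1 and 2 against 2, 1 and 3.

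The member genes had 453 other regions. The rule decided which regions these are, since any region of these genes lost in 2 or more pairs and gained in none was itself a member, so their calls are given with no test. In knockdown replicates 1, 2 and 3, 237, 58 and 293 were called, against 213, 69 and 354 in scrambled replicates 1, 2 and 3. The groups overlapped, at 196.0 ± 122.7 in the knockdown libraries and 212.0 ± 142.5 in the scrambled libraries (SD, n = 3 each), a difference of -16.0. Of the 453, 6 belonged to the gained set, and without these the difference was -20.33, an alternative chosen after seeing the data. Within pairs the number was higher in the knockdown of replicate 1 and lower in that of replicates 2 and 3. The difference turned to 53.0 without knockdown replicate 2 and to 55.0 without scrambled replicate 3. The ratio of knockdown to scrambled calls was 1.11, 0.841 and 0.828 in replicates 1, 2 and 3, against 1.29, 1.04 and 0.987 over all 21440 regions outside the set. In each of the 3 pairs the ratio for the member genes was the lower one, and that gap itself was not tested.

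**Figure D4:**
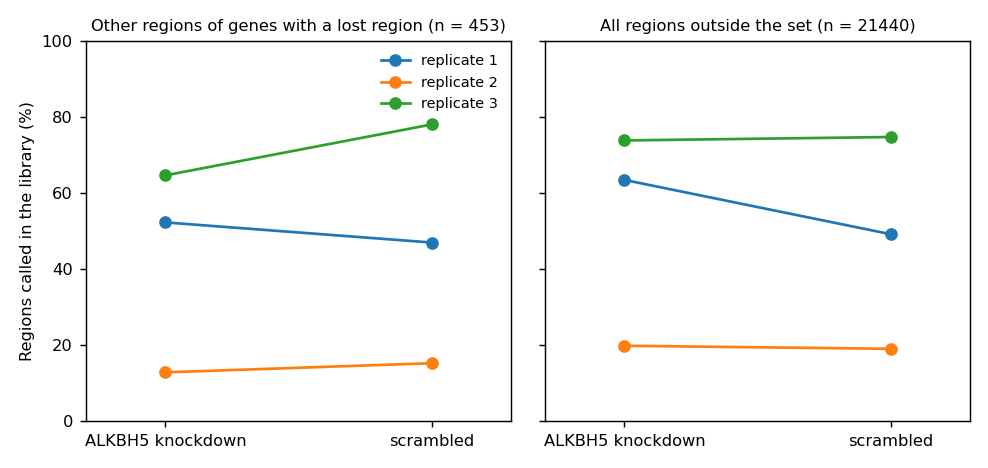
Percentage of regions called in each library for the 453 other regions of genes with a lost region (left) and for all 21440 regions outside the set (right), with lines joining same-numbered libraries. In replicate 3 the knockdown called 64.7% of the other regions of these genes, against 78.1% in the scrambled library, and in replicate 1 it called 52.3% against 47.0%.

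Zinc finger genes (symbols ZNF and ZFP) held the most members of the 27 lists. Their proteins mostly bind DNA through tandem zinc fingers, and many carry a KRAB domain that recruits silencing complexes. The list held 17 of the 235 regions (7.23%), against 1060 of all 21675 (4.89%) and 10 of the 741 gained regions (1.35%). By genes the shares were 7.8% of member genes and 4.03% of all genes in the lists. Of the 17, 16 were lost in replicates 1 and 3, and 8 lay on chromosome 19, where 418 of the 1060 regions of the family lay. Outside the members, 693, 146 and 814 ZNF regions were called in knockdown replicates 1 to 3, against 608, 174 and 915 in scrambled replicates 1 to 3. The ratios of knockdown to scrambled calls were 1.14, 0.839 and 0.89. Near-identical zinc finger arrays can share reads, so single ZNF peaks are uncertain.

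The best-ranked ZNF members were ZNF320, ZNF23, ZNF608 and ZNF207. ZNF320 lost a region at chr19:53384898-53385228 on the minus strand, with 181 and 331 nt in scrambled replicates 1 and 3 and no knockdown peak. Over the whole gene, ZNF320 had 0, 0 and 1 regions called in the knockdown libraries, against 2, 0 and 5 in the scrambled ones. ZNF608 had no region called in the knockdown libraries, against 1, 0 and 4 in the scrambled ones. ZNF23 was called to a like extent, with 2, 0 and 2 regions against 3, 0 and 3. ZNF207, a spindle assembly protein despite its name, had no other region, and its lost region covered 121 and 180 nt in scrambled replicates 1 and 3.

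RefSeq classes 20 of the member regions (8.51%) as lying in long noncoding RNA genes, against 4.69% of all regions and 4.99% of the gained ones. Pseudogenes held 9 members (3.83%), against 1.74% of all and 1.21% of the gained regions. A further 12 members (5.11%) carried no gene number, against 3.61% of all regions and 3.1% of the gained ones. Protein-coding genes held 192 (81.7%), against 89.9% of all regions and 90.8% of the gained ones. The sets most like the members lay between them and all regions. In regions called in exactly 2 libraries these 4 shares were 5.86%, 2.3%, 4.11% and 87.4%, in the same order. In regions lost in exactly 1 number and gained in none they were 5.52%, 2.23%, 4.68% and 87.4%. By symbol, the list of long noncoding RNAs held 13 member regions (5.53%), against 3.45% of all regions and 33 gained regions (4.45%), and all 13 were lost in replicates 1 and 3. The other regions of that list had ratios of knockdown to scrambled calls of 1.39, 1.02 and 0.931 in replicates 1, 2 and 3. Its best-ranked members beside LINC00900 were H1-10-AS1, LINC01134 and SH3BP5-AS1. H1-10-AS1 covered 179 and 268 nt in its lost region in scrambled replicates 1 and 3, and over the gene had 1, 0 and 2 regions called in the knockdown libraries, against 4, 0 and 4 in the scrambled ones. LINC01134 had 180 and 419 nt in scrambled replicates 1 and 3 and no other region. For antisense RNAs the strand is that of the lists, and how the peak caller used it is not given in the sources used here. The intergenic genes LINC00471 and LINC03027 each lost 1 region.

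The remaining lists held few members each. Of 27 lists, 20 differed from all regions by at most 0.5 percentage points, and 9 had no member. A list with under 0.5% of all regions, such as proteasome subunits (0.157%), meets that bound even with no member. In the heat shock list, 1 member already made up 0.426% of the lost regions. The bound therefore cannot show that small lists held shares close to those of all regions. Ubiquitin conjugating enzymes, ligases and adaptors held 5 members (2.13%, against 2.39% of all regions): PJA2, the F-box proteins FBXL22 and FBXL19, RNF14 and KLHL20, an adaptor of cullin ligases. FBXL22 covered 120 and 508 nt in scrambled replicates 1 and 3, and RNF14 covered 181 and 121 nt, with no knockdown peak in either region. Solute carriers also held 5 (2.13%, against 1.72% of all regions and 3.1% of the gained ones): SLC35A2, which carries UDP-galactose into the Golgi, SLC25A23 of mitochondria, the folate transporter SLC46A1, SLC35C1, which carries GDP-fucose, and SLC29A4. FBXL19 and SLC29A4 ranked last in their lists and were named after their values were seen. The SLC46A1 region overlapped a member on the opposite strand in SARM1, with the same percentiles of 37.1 and 8.89 in scrambled replicates 1 and 3. There were 4 such opposite-strand pairs of members, another of them in SNRNP35 and RILPL1, and their strand of origin is uncertain (SARM1 and RILPL1 were named after their values were seen). SLC35A2 had 180 nt in scrambled replicate 1 and 180 nt in scrambled replicate 3.

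RNA helicases and splicing factors held 3 members (1.28%, against 1.02%): RBM41, SNRNP35 of the minor spliceosome, and the helicase DDX3X. RBM41 covered 240 and 359 nt in scrambled replicates 1 and 3. The DDX3X region ranked low, with a percentile of 5.95 in scrambled replicate 3. DNA damage and repair held 2 members (0.851%, against 0.692% of all regions): POLQ, the polymerase of microhomology-mediated end joining, and MSH6 of mismatch repair. POLQ covered 61 and 330 nt in scrambled replicates 1 and 3, and over the gene had 2, 0 and 3 regions called in the knockdown libraries, against 1, 0 and 6 in the scrambled ones. The MSH6 region covered 120 and 150 nt in scrambled replicates 2 and 3. The genes named for coiled-coil domains, CCDC30, CCDC112 and CCDC102B, formed the only other symbol stem shared by 3 or more member genes beside ZNF, LINC and SLC.

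Beside HSPA4, HDAC9 and CENPF, lists with 1 member each gave ZBTB40, RPL7L1, MRPL40, TMEM184C, INO80, the ATPase of a chromatin remodeller, and PPP1R7, a regulatory subunit of protein phosphatase 1. The RPL7L1 region was called at 388 nt in knockdown replicate 3, against 61, 120 and 388 nt in scrambled replicates 1, 2 and 3. The matrix and adhesion list held 2 members (0.851%, against 0.738% of all regions): ITGB5, an integrin subunit, and LAMB1, a laminin chain. ITGB5 covered 329 nt in knockdown replicate 3, against 91, 90 and 210 nt in scrambled replicates 1, 2 and 3. LAMB1 had 91 nt in each of scrambled replicates 2 and 3. The RAB list held DENND4C and RABGAP1L (0.851%, against 0.886% of all regions). No member lay in the lists of m6A writers, erasers and readers, which had 37 regions, or in deubiquitinases, proteasome subunits, kinesins, dyneins and myosins, endosomal sorting, histone methylation, cyclins and CDKs, MAPK signalling or the interferon response. These 9 lists were small, each with between 0.157% and 0.84% of all regions, so a count of 0 among 235 is near their share.

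**Figure D5:**
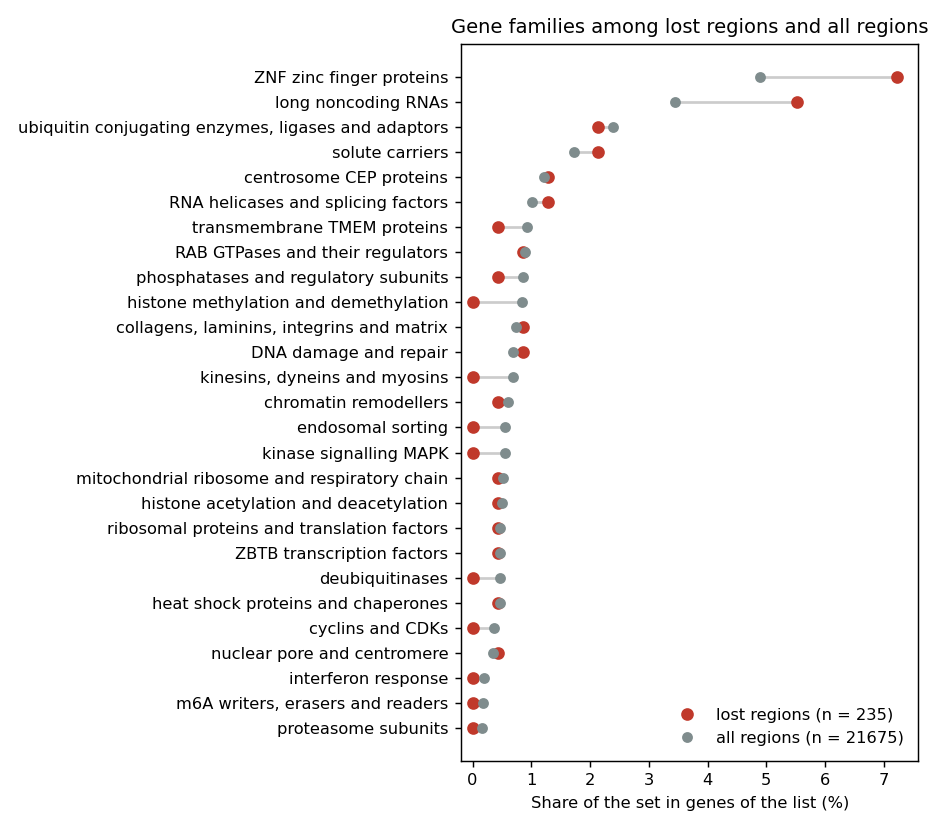
Share of the 235 lost regions (red) and of all 21675 regions (grey) that lay in genes of each of 27 lists, in percent. The largest gaps are in ZNF genes, with 7.23% of lost and 4.89% of all regions, and in long noncoding RNAs, with 5.53% and 3.45%.

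MNX1, FOXD2, HAND2, PAX6 and CEBPB, all transcription factors, were on none of these lists and were named after their values were seen. The share of transcription factors among member genes and among all genes was not determined, so they show no excess of this class. MNX1 had 328 and 269 nt in scrambled replicates 1 and 3, and FOXD2 had 91 and 360 nt, with no knockdown peak in either lost region. Peaks of knockdown replicate 3 lay close by, 208 nt from the MNX1 region and 89 nt from the FOXD2 region. HAND2 and PAX6 kept calls at other regions in both conditions. CEBPB, a leucine zipper factor of the acute phase response, had 61 and 60 nt in its lost region. A peak of knockdown replicate 1 lay 28 nt from that region. Knockdown peaks covered 716, 0 and 715 nt elsewhere in CEBPB, against 806, 0 and 743 nt over the whole gene in the scrambled libraries.

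Peaks of 40 members (17%) spanned more than 1 exon block, against 24.4% of all regions and 17.4% of regions called in exactly 2 libraries. Among the 174 members in genes with 2 or more regions, 31.6% were the last region along the transcript's strand and 34.5% the first, against 34.3% and 34.3% over all regions. Chromosome 1 held 27 members (11.5%, against 9.77%) and chromosome 19 held 17 (7.23%, against 6.24%). Whether a region was coding or untranslated was not determined, because no annotation of hg19 was used here, and for the same reason no region sequence is shown.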

How the data were processed

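m6A immunoprecipitates of 143B cells were compared as deposited peak lists. The submitters' processing notes name CASAVA 1.8.2, TopHat2, SAMtools and hg19. The peak caller, its threshold and any use of input were not given in the sources used here. Lists were separate per library. The labels' antibody field names the same antibody for all 6 libraries, unlike the protocol text. The deposited score, at most 0.011, was read as a p-value by its range and ranked within each list only. Depth is unknown, and no interval could be given.

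Peaks of all 6 lists were joined by same-strand exon-block overlap of 1 bp or more. Python 3.11.15 and pandas 2.3.3 were used, and the joining and the rule were tested on simulated lists. Gene numbers were named through RefSeq GRCh38.p14, used for names and gene classes only: 10500 of 10536 matched. Coordinates are hg19, counted from 1. Replicate numbers pair the libraries, since the labels' protocols give RNA type and antibody by number, and same-numbered deviations across regions correlated at 0.24, 0.31 and 0.29.

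The members and the 27 lists were chosen with earlier results of these data known. List patterns for 4 lists were narrowed after their matches were seen, because some took unrelated symbols. Named regions were those lost in all 3 numbers, the best 6 per combination, genes with 2 members, up to 4 per list, and symbol stems shared by 3 or more genes. The exact permutation test planned for calls at other regions of member genes is not reported, because the rule conditions which regions those are. Alternatives were the best-scored 50% of lists, trimmed lists, 50 bp overlap, 100 bp extension, left-out replicates, the replicate block and its absence. A few results that the naming rule would include are not reported here.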

Additional observations from a re-analysis of the deposited data

How the results depend on the processing

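When 1 replicate number was left out, the rule asked for loss in both of the others. The counts then mostly restate the combinations given above and do not measure robustness. The number of lost regions ranged from 25 to 189 in this way, against 235 with all: 39 without replicate 1 and 25 without replicate 3. It was 225 with the best-scored 50% of each list (12 of the 235 had a peak in them), 285 with the longer list of each pair trimmed to the shorter (228 of the 235), 216 with an overlap of 50 bp (202 of the 235) and 208 with peak ends extended by 100 bp (185 of the 235). With no replicate block, regions called in at least 2 more scrambled than knockdown libraries numbered 235, but this is the same rule by arithmetic and says nothing about the pairing. For calls at other regions of the member genes, the mean difference of -16.0 ranged from -87.5 to 55.0 when each library was left out. It turned positive without knockdown replicate 2 (53.0) or scrambled replicate 3 (55.0). The first had the fewest such calls of the knockdown libraries (58 of 453), the second the most of the scrambled ones (354 of 453). Leaving out 1 library also breaks its pair, so the change of sign follows from these counts. Why the libraries differed in their counts was not tested. The other settings kept the sign. With the replicate block the difference is the same -16.0, and no test is given, because the rule shaped which regions these are. Unknown depth limits every missing call.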
